A study of Mus musculus with 4 samples.

Results

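The genes that mark microglia in their resting, homeostatic state, namely P2ry12, P2ry13, Tmem119, Cx3cr1, Csf1r and Siglech, were followed in slices of the mouse brain at the level of the striatum at 2 ages. They are 6 of the 383 genes of a MERFISH panel (multiplexed error-robust fluorescence in situ hybridization, which counts single RNA molecules of each panel gene inside segmented cells of a tissue slice), taken by name as a list of known microglial genes. The 4 samples were coronal slices, 10 µm thick, holding the striatum of both hemispheres and the tissue around it, from wild-type C57BL/6NTac mice with no treatment: 2 slices from young mice of 2 months (Young 1 and Young 2) and 2 from aged mice of 18 months (Aged 1 and Aged 2). The labels do not name the animal behind each slice, so a p-value here measures the spread between slices. The tests of genes pool this spread over genes, and 2 slices per age limit every comparison with age.

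Microglia are the resident macrophages of the brain parenchyma, seeded from the yolk sac and kept by slow self-renewal, and they depend on signalling through the CSF1 receptor to survive. In the healthy brain they carry fine moving processes and a set of surface receptors, called homeostatic, through which they sense signals such as nucleotides and chemokines. This set is known to be lowered when microglia take up an activated state, as around plaques, in damaged white matter and in old tissue. Border-associated macrophages, which live around vessels and in the meninges, share Csf1r with microglia but carry most of the other homeostatic genes at low levels.

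By function the list holds 4 groups. P2ry12 and P2ry13 encode G protein-coupled purinergic receptors for ADP, and P2ry12 directs microglial processes towards sites of injury. Cx3cr1 encodes the receptor for the neuronal chemokine fractalkine. Csf1r encodes the receptor for CSF1 and IL-34. Tmem119, a transmembrane protein, and Siglech, a member of the family of sialic acid-binding lectins that signals through Tyrobp, are widely used to tell microglia from other macrophages.

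All 6 symbols of the panel were found in RefSeq's gene table of the mouse build GRCm38.p6, and the sequence before the gene start was at hand for 4 of them. P2ry13 (chr3:59207892-59210882) and P2ry12 (chr3:59216271-59262985) lie side by side on the minus strand of chromosome 3 with 5388 bases between them. Tmem119 is on chromosome 5 (chr5:113793729-113800396), Siglech on chromosome 7 (chr7:55768154-55779448) and Cx3cr1 on chromosome 9 (chr9:120048683-120068296). The 250 bases before the annotated start (220 for Siglech) are shown because these genes share one cell class: the pair of neighbours P2ry13 (chr3:59210883-59211132) and P2ry12 (chr3:59262986-59263235), Cx3cr1 (chr9:120068297-120068546, minus strand) and Siglech (chr7:55767934-55768153, plus strand), the 1 member that passed the test between white and grey matter. Each is written 5′ to 3′ on the gene's strand, with capitals for a match on either strand to any of the following patterns. GAGGAA is the core of the site of the myeloid factor PU.1. GGAA, 2 bases of any kind and GAAA make a joint PU.1 and IRF site. CTA, 4 bases of any kind and TAG make a pattern looser than the MEF2 site, which is stricter in its middle bases.
P2ry13: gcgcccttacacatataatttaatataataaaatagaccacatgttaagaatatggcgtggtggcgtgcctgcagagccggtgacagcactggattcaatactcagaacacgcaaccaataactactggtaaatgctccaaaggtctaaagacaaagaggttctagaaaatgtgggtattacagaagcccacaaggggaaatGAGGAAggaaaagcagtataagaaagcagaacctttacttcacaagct
P2ry12: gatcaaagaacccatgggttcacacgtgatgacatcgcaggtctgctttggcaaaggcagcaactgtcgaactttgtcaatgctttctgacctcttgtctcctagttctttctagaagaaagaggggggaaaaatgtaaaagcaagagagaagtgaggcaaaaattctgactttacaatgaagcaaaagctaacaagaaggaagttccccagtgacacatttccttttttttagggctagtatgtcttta
Cx3cr1: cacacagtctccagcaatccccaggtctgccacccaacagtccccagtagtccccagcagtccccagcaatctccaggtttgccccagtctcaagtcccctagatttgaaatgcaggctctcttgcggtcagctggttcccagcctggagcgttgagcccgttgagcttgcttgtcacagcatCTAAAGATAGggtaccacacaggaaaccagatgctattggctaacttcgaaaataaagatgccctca
Siglech: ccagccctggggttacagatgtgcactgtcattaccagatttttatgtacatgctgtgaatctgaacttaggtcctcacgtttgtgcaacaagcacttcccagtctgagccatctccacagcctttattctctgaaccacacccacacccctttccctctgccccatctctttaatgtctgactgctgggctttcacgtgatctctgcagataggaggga
GAGGAA stood once before P2ry13, 42 bases from its start. The looser MEF2 pattern stood once before Cx3cr1, as CTAAAGATAG, 57 bases from its start. The P2ry12 and Siglech windows held no match. Of 32851 RefSeq windows of 250 bases, 23.3% held GAGGAA, 2.30% the joint site and 3.20% the looser MEF2 pattern. A match says only that the letters are there.

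Of 320663 segmented cells, 281824 passed the filters of the methods (10 genes and 50 µm³ or more), and the slices held 18816375 to 36116711 counted transcripts, fewest in Aged 1. Cells were grouped without the 6 genes, from the other 377, so that a class could not be defined by them. One class of 11459 cells, 2651 to 3027 per slice, was named microglia-like: all 7 of its marker genes, C1qa, C1qb, C1qc, Ctss, Tyrobp and Trem2 among them, were raised in it. A class of 715 macrophage-like cells, found among the vascular cells, carried Mrc1, Pf4, Ms4a7, Lyz2 and Dab2. Of these cells 400 held 3 or more of the 5 markers. The genes most raised in the class were Cd74, H2-Ab1, H2-Eb1 and Igkc, so it may not be macrophages alone. Cells that also held 3 or more markers of an unrelated class were set aside as mixed, which left 5366 microglia-like and 355 macrophage-like cells. These cells were shallow, with a median of 79 to 115 transcripts per microglia-like cell, and the rule kept 1117 of 2853 cells of the class in Young 1, 1361 of 2928 in Young 2, 1471 of 2651 in Aged 1 and 1417 of 3027 in Aged 2. Microglia-like cells made up 3.19% and 3.34% of unmixed cells in the young slices and 3.28% and 3.31% in the aged, a difference of 0.0313 percentage points (exact permutation p = 1, two-sided, n = 2 per age, where 0.333 is the smallest possible). The rule set aside 48.5% and 42.5% of kept cells in the young slices and 34.5% and 42.6% in the aged. Over all kept cells the shares were 4.19% and 4.14% in the young and 3.87% and 4.06% in the aged slices. Both aged slices then lay below both young ones (exact permutation p = 0.333), so the outcome depended on the mixed cells.

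The 6 genes were sharply concentrated in microglia-like cells. A level is given here as transcripts of the gene per 10000 transcripts of the same cells, and levels of different genes are not set against each other, since each gene has its own probes. Every gene was higher in microglia-like cells than in each of the 7 other classes in all 4 slices. Outside microglia-like and macrophage-like cells no gene passed 7.22 per 10000 in any class of any slice. These are descriptions without a test, since classes come from clustering.

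P2ry12 measured 505 and 603 per 10000 in the microglia-like cells of Young 1 and Young 2, and 427 and 532 in those of Aged 1 and Aged 2 (517 ± 72.8, SD, n = 4). In macrophage-like cells it measured 13.6 and 22.2 in the young slices and 12 and 18.4 in the aged. The median of the 4 ratios within a slice was 32.2-fold. Its neighbour P2ry13 measured 86.5, 88.9, 65.8 and 70.0 per 10000 in microglia-like cells, in the same order of slices, and 5.85, 7.58, 5.66 and 10.1 in macrophage-like cells, a median ratio of 11.7-fold. The lowest ratio in any slice was 27.2-fold for P2ry12 and 6.90-fold for P2ry13, so the classes did not overlap for either ADP receptor.

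Cx3cr1, the fractalkine receptor, measured 405 and 318 per 10000 in the young and 298 and 296 in the aged microglia-like cells, against 21.9, 20.6, 15.6 and 28.5 in macrophage-like cells, a median ratio of 17.0-fold. Tmem119 measured 115 and 88.9 in the young and 76.4 and 83.5 in the aged, against 3.90, 2.71, 4.25 and 3.17 in macrophage-like cells (28.0-fold). Siglech measured 71.5 and 57.0 in the young and 39.4 and 59.2 in the aged, against 3.41, 2.71, 2.83 and 6.97 in macrophage-like cells (17.4-fold). The macrophage values of Tmem119 and Siglech rested on 4 to 11 transcripts a slice.

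Csf1r was the gene with the smallest gap between the 2 classes. It measured 427 and 482 per 10000 in the young and 425 and 346 in the aged microglia-like cells, and 91.6, 141, 108 and 110 in macrophage-like cells, a median ratio of only 3.68-fold. Per cell the gap was smaller still, with 5.13 ± 1.26 Csf1r transcripts per microglia-like cell and 2.17 ± 0.436 per macrophage-like cell (SD, n = 4 slices), because macrophage-like cells held more transcripts of all genes (median 137 to 164). Csf1r also had the lowest ratio, followed by P2ry13, where macrophage-like cells were chosen by 3 or more of their 5 markers, with 2.63-fold for Csf1r and 6.19 to 24.3-fold for the others. With mixed cells kept, the Csf1r ratio was 1.98-fold and the others 4.31 to 12.7-fold.

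**Figure D1:**
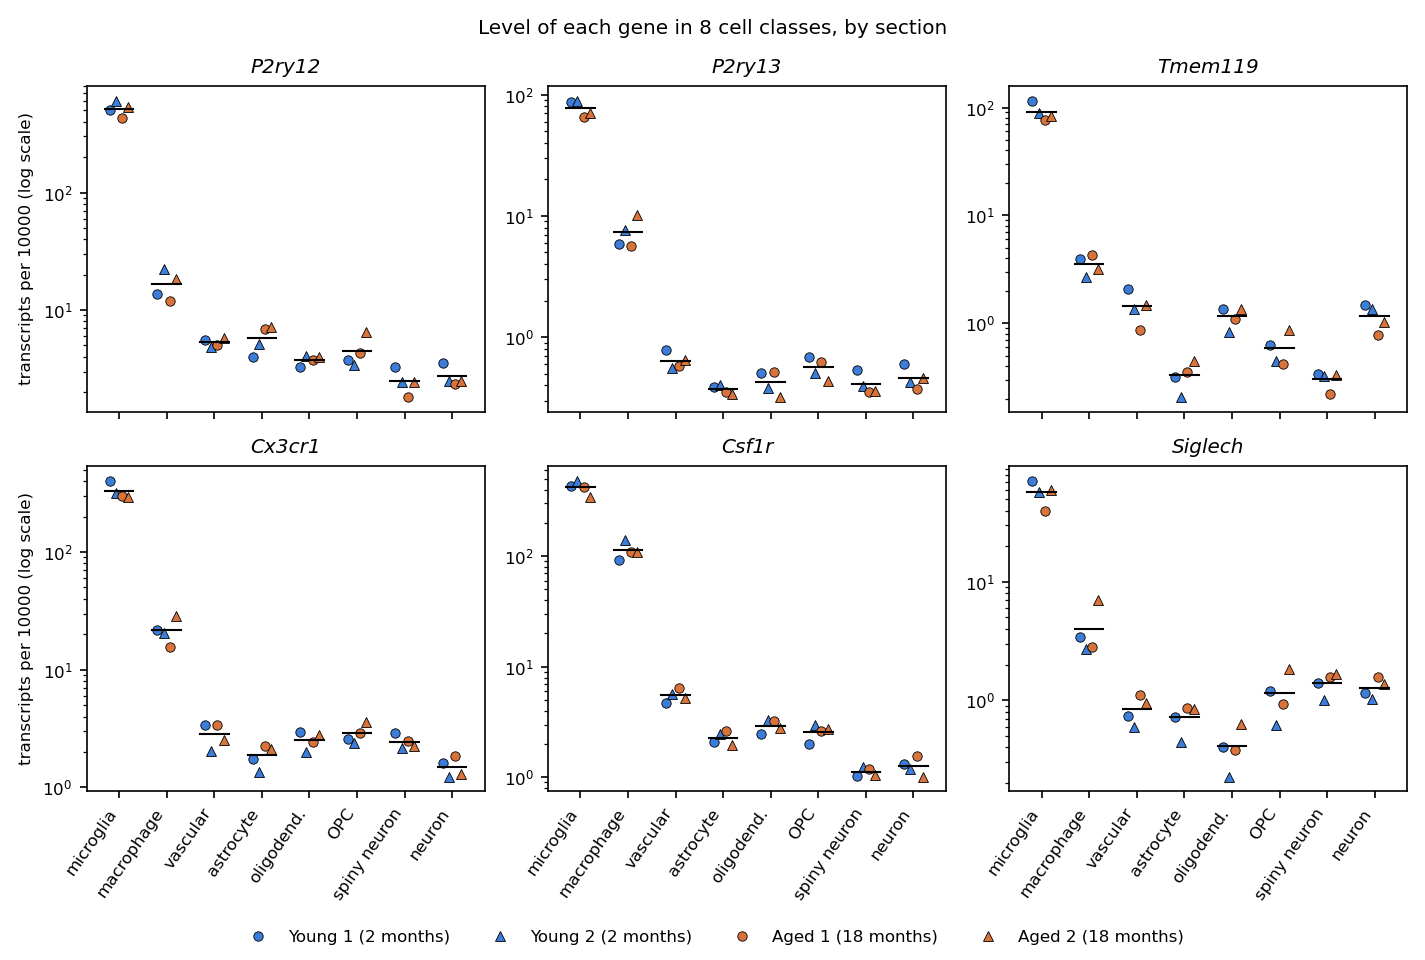
Level of each gene (transcripts per 10000, log scale) in 8 cell classes, 1 point per slice (blue, young; orange, aged; circle, slice 1; triangle, slice 2) and a bar for the mean of 4 slices. Microglia-like cells stand far above every other class for each gene, and macrophage-like cells come second, closest for Csf1r at 113 against 420 per 10000.

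Below these 2 classes the order was mostly within the spread of the slices. For P2ry12 astrocyte-like cells followed with 5.83 ± 1.53 per 10000, overlapping with vascular cells at 5.31 ± 0.471, and spiny neuron-like cells came last with 2.50 ± 0.595. For Csf1r vascular cells came next with 5.52 ± 0.726, above oligodendrocyte-like cells at 2.94 ± 0.378 with no overlap, and neighbours further down overlapped except astrocyte-like above neuron-like cells (2.28 ± 0.301 against 1.28 ± 0.229). For Cx3cr1, P2ry13 and Tmem119 every pair of neighbours from the third class down overlapped. Siglech differed in its order: spiny neuron-like and neuron-like cells followed macrophage-like cells with 1.41 ± 0.294 and 1.28 ± 0.241, and oligodendrocyte-like cells came last with 0.411 ± 0.168 (SD, n = 4). Its neighbours from the third class down all overlapped as well.

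Most of the transcripts nonetheless lay in the small microglia-like class. Over all kept cells, mixed ones included, 66.0 to 73.9% of P2ry12 transcripts, 67.6 to 74.6% of P2ry13, 67.9 to 72.9% of Cx3cr1 and 73.8 to 76.1% of Csf1r transcripts of a slice were counted in microglia-like cells. For Tmem119 the share was 59.6 to 66.5%. Siglech stood apart with 34.1 to 49.2%. Macrophage-like cells held 1.86 to 3.31% of Csf1r and at most 1.41% of any other gene.

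The low counts in other classes varied with the distance to microglia. Over all kept cells, mixed ones included, P2ry12 measured 9.5 to 10.9 per 10000 in spiny neuron-like cells whose centre lay within 15 µm of that of a microglia-like cell, and 2.09 to 3.38 in those beyond 40 µm. In unmixed cells alone, a comparison added after seeing the data, it measured 7.74 to 9.22 near and 1.53 to 3.16 far. Over all kept cells P2ry12, Cx3cr1, Csf1r and Tmem119 were higher near than far in all 4 slices in each of the 6 classes outside the immune cells, and P2ry13 in 5 classes. In unmixed cells this held in 6 classes for Cx3cr1 and Csf1r, in 5 for P2ry12 and P2ry13 and in 4 for Tmem119. Siglech was higher near in all 4 slices in 4 classes over all kept cells (vascular, OPC-like, spiny neuron-like and neuron-like cells) but in spiny neuron-like cells alone among unmixed cells. Its difference was small in neurons, with 1.45 ± 0.280 near and 1.29 ± 0.241 far in neuron-like and 1.87 ± 0.497 near and 1.40 ± 0.299 far in spiny neuron-like cells over all kept cells (SD, n = 4). The part of cell outlines that cross between neighbours in these low levels was not tested.

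**Figure D2:**
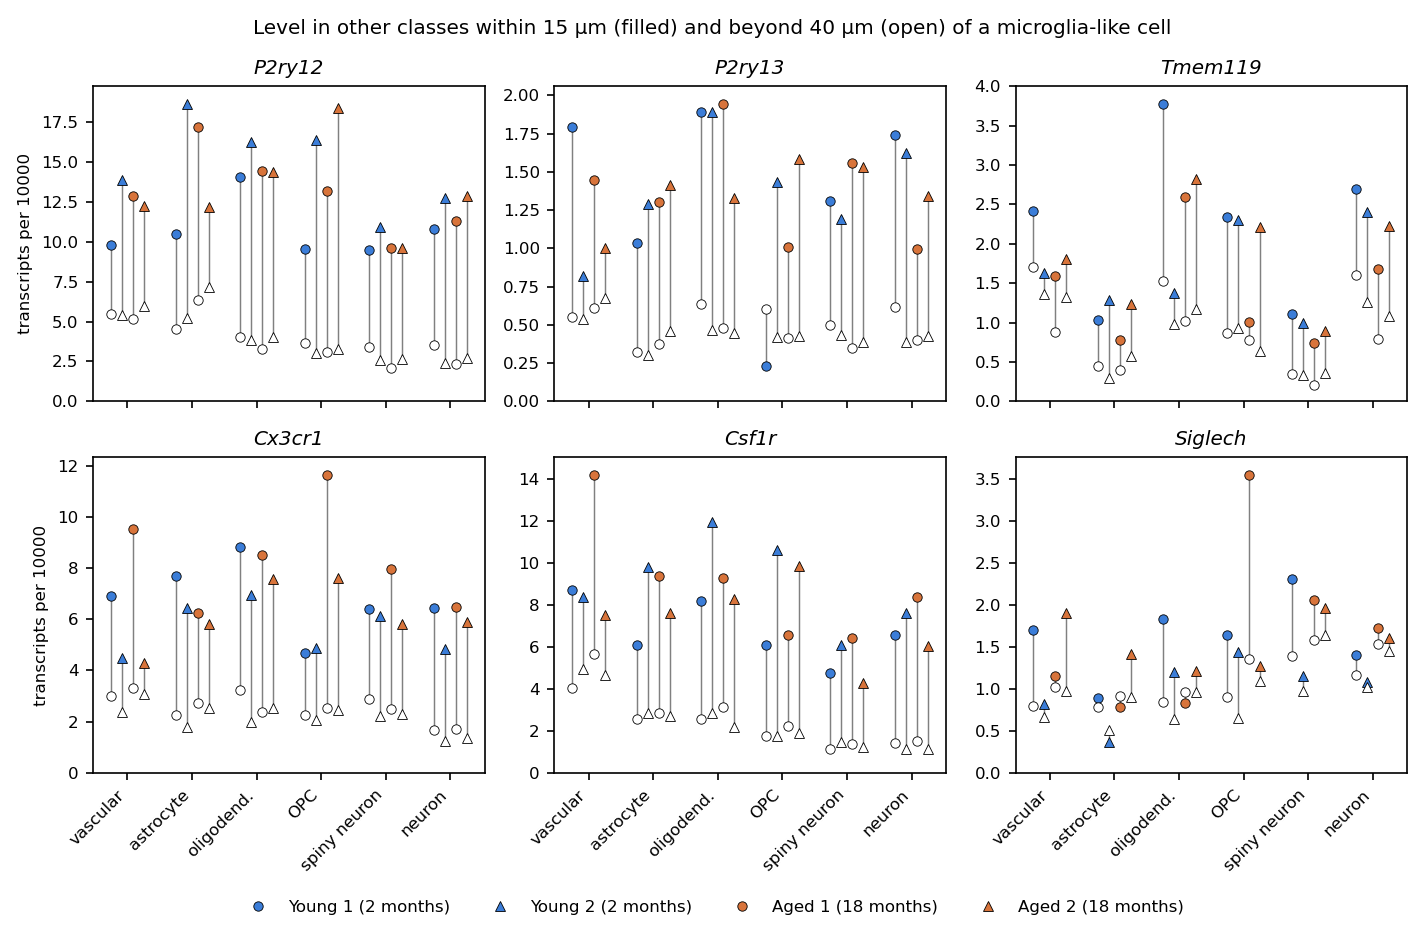
Level (transcripts per 10000) of each gene in all kept cells of 6 other classes, mixed ones included, within 15 µm (filled) and beyond 40 µm (open) of a microglia-like cell, 1 line per slice. Filled points lie above open ones throughout for P2ry12, Cx3cr1, Csf1r and Tmem119, while for Siglech the points lie close together in neuron-like cells.

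Within single microglia-like cells the genes were seen together. A P2ry12 transcript was found in 82.5 to 90.9% of unmixed cells of a slice, Csf1r in 79.7 to 87.6%, Cx3cr1 in 73.8 to 88.8%, Tmem119 in 41.5 to 64.3%, P2ry13 in 37.8 to 57.9% and Siglech in 25.5 to 52.1%. Of the 6 genes a cell held 4.42 and 4.02 on average in the young slices and 3.42 and 3.70 in the aged. Cells of the aged slices were shallower, so each cell was thinned to 100 transcripts, which left out 498 to 898 shallower cells a slice. The averages were then 4.53 and 4.36 in the young and 3.85 and 4.18 in the aged slices, and 91.4, 90.8, 83.2 and 86.5% of cells held 3 or more of the genes. Among macrophage-like cells thinned the same way 7.94 to 9.46% did. In spiny neuron-like cells, which should lack the genes and held a median of 224 to 399 transcripts, it was 0.0669 to 0.150%. Over single cells the 15 pairs of genes correlated with r from 0.164 to 0.526 on a log scale (Pearson, 1117 to 1471 cells a slice); the cells of a slice share their depth and segmentation, and these values are a description. The highest single value was that of P2ry12 with Csf1r in one slice, and the lowest that of P2ry12 with Siglech.

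Over the 8 class means the other panel genes most like the mean of the 6 included Trem2 (r = 0.995), a receptor for lipids, Itgam (0.990), the integrin CD11b, and C1qc (0.971), a chain of complement C1q. Trem2 and C1qc had served as markers of the class and Itgam had entered the clustering, so this is a description of 8 points and no test.

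White and grey matter were told apart by position. A cell was placed in white matter if oligodendrocyte-like cells reached a share of 50% among its neighbours within 100 µm, and in grey matter if their share was under 20%. Oligodendrocyte-like cells made up 12.6 and 12.1% of all kept cells in the young slices and 17.0 and 17.4% in the aged. The white matter drawn by this rule held 2460 and 2620 kept cells in the young and 3929 and 4094 in the aged slices. White matter held few unmixed microglia-like cells, 32 and 33 in the young slices and 92 and 56 in the aged, against 915 to 1147 in grey matter. Counts were summed per slice and zone and tested with edgeR's quasi-likelihood test with the slice as a block, over 338 genes, with Benjamini-Hochberg adjustment. Of all genes tested 30.5% passed, 8.28% as higher and 22.2% as lower in white matter. Of the 6 members 1 passed, Siglech.

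Siglech was lower in white than in grey matter in all 4 slices. It measured 34.4 per 10000 in white and 73.6 in grey matter in Young 1, 45.1 and 57.3 in Young 2, 22.3 and 43.2 in Aged 1, and 50.4 and 57.7 in Aged 2, from 18, 21, 20 and 31 transcripts in white matter. The fitted difference was -0.70 ± 0.22 on the log2 scale (SE), 0.615 of the grey matter level (adjusted p = 0.0156). It was the one member lower in all 4 slices, as were 30.2% of the genes tested. The call was lost with DESeq2 (log2 -0.71, adjusted p = 0.0545), with a single limit of 40% for the zones (-0.35, 0.30), with mixed cells kept (-0.10, 0.674) and without Young 1, Young 2 or Aged 1 (adjusted p = 0.0848, 0.0659 and 0.102).

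The other 5 genes showed no difference between the zones that passed the test. P2ry12 measured 567, 638, 346 and 523 per 10000 in white matter and 496, 595, 441 and 506 in grey matter in Young 1, Young 2, Aged 1 and Aged 2. Its fitted difference was -0.07 on the log2 scale with a 95% interval from -0.38 to 0.24. P2ry13 differed by -0.07 (-0.46 to 0.32), Cx3cr1 by -0.08 (-0.40 to 0.25), Csf1r by 0.15 (-0.18 to 0.47) and Tmem119 by 0.17 (-0.21 to 0.55), with adjusted p from 0.584 to 0.869. Microglia-like cells of white matter held more oligodendrocyte marker transcripts (116 to 306 per 10000 over the 6 markers, against 22.5 to 31.3 in grey matter) and fewer of neurons (15.6 to 30.9 against 255 to 421 over 7 markers), and the part of this in the zone values was not tested. Scaled to the sum of the 7 microglia markers, which were themselves higher in white matter, 3 members were lower there: Siglech (-1.05), Cx3cr1 (-0.42) and P2ry12 (-0.42, adjusted p = 0.00234, 0.00719 and 0.0117).

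Along the share of oligodendrocyte-like cells the level of Siglech was 57.3 per 10000 below 10%, 59.7 from 10 to 20%, 56.7 from 20 to 30%, 50.7 from 30 to 40% and 61.5 from 40 to 50%. It was 39.0 from 50 to 60% and 40.8 above 60%, so the course was not steady. From 50 to 60% it rested on 4 to 10 Siglech transcripts a slice. Young 2 measured 56.8 there, against 56.1 below 10%. The mean of Csf1r went from 404 below 10% to 461 above 60%, with SDs of 67.4 and 83.8 (n = 4) that overlap. The slices did not share this course. Csf1r went from 410 to 389 in Young 1 and from 477 to 432 in Young 2. It went from 414 to 582 in Aged 1 and from 314 to 441 in Aged 2. The bins above 40% held as few as 12 cells in a slice. Inside the striatum, which held 446 to 490 of the microglia-like cells of a slice, P2ry12 measured 507 ± 71.5 against 519 ± 65.6 per 10000 in other grey matter, Csf1r 412 ± 56.3 against 413 ± 68.9, Tmem119 88.9 ± 18.2 against 88.6 ± 16.6 and Siglech 58.7 ± 9.02 against 57.0 ± 16.2 (SD, n = 4). Cx3cr1 was higher in the striatum in 4 of 4 slices (343 ± 50.4 against 307 ± 50.8). P2ry13 was higher there in 3 of 4 (84.3 ± 10.8 against 72.3 ± 15), with the widest gap in Aged 1 at 80.1 against 56.1. These differences were not tested.

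**Figure D3:**
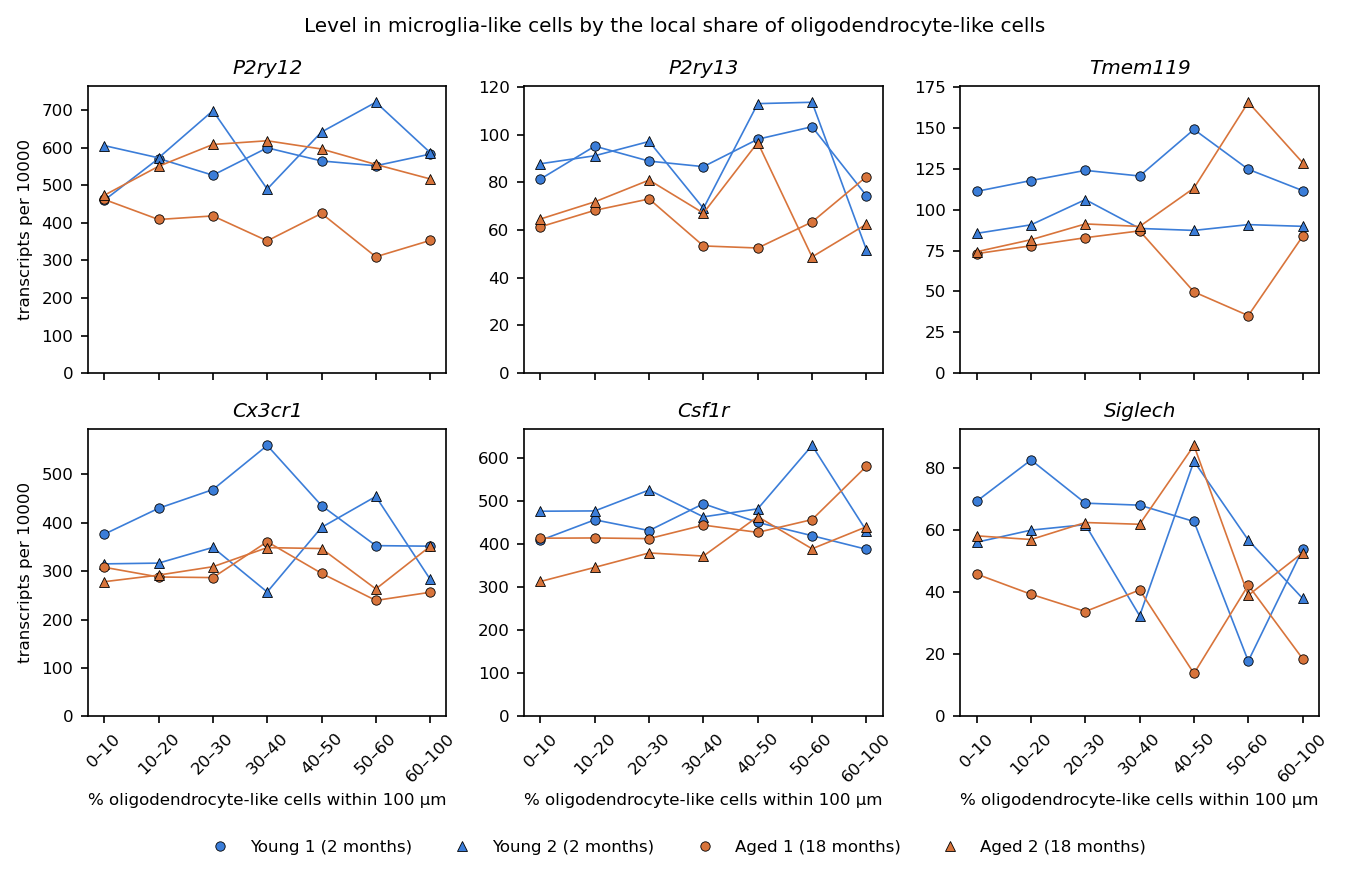
Level (transcripts per 10000) in microglia-like cells of places with a rising share of oligodendrocyte-like cells within 100 µm, 1 line per slice. The mean of Siglech is lower above 50%, at 39.0 and 40.8, but not in every slice, and the lines cross for Siglech as for the other genes.

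The other microglial genes gave a setting for these values. The 18 genes of a microglial identity list had entered the clustering, and Ctss was also a marker of the class. Of these 18, 16 had a higher estimate in white matter (median log2 difference 0.27, against -0.12 over all genes tested). In this list 2 genes rose, as did 8.28% of all genes tested. They were Cd84, an immune cell adhesion receptor (0.68 ± 0.19, adjusted p = 0.00757 by edgeR), and Ctss, a lysosomal protease (0.55 ± 0.16, 0.0102). Of the 28 genes of an activation list 22 could be tested and 4 rose. B2m, the light chain of MHC class I, measured 45.9, 73.0, 95 and 114 per 10000 in white matter and 36.2, 54.9, 58.7 and 50.9 in grey matter (log2 0.62 ± 0.20, adjusted p = 0.0169). Lyz2, the macrophage lysozyme, rose by 1.92 ± 0.50 (0.00363). Cd74, the MHC class II chaperone, rose by 2.14 ± 0.76 (0.0335), from 30 and 20 white matter transcripts in Young 2 and Aged 1 and 1 in each other slice. Tnf rose by 2.10 ± 0.77 (0.0376), from 1 to 8 transcripts a slice. Cd74 was lower in white than in grey matter in Young 1 (1.91 against 3.05 per 10000) and Aged 2 (1.63 against 8.21). Each of these 6 calls was lost under some alternative. With DESeq2 those of B2m, Ctss, Cd74 and Tnf were lost (adjusted p = 0.0795, 0.0619, 0.144 and 0.0663), and with limma those of Cd74 and Tnf (0.418 and 0.212). Scaled to the microglia markers, Lyz2 alone of the 6 passed (0.0356, the others 0.124 to 0.404). With a single limit of 40% B2m, Ctss and Tnf were lost (0.0665, 0.0557 and 0.0591), and at resolution 0.3 Cd74 and Tnf (0.0608 and 0.0794). Without Aged 1 the calls of Lyz2, Cd74, Cd84 and Ctss were lost (0.0957, 0.136, 0.0679 and 0.0814), and without Aged 2 those of B2m, Cd84 and Ctss (0.273, 0.0989 and 0.209). Without Young 1 or Young 2 those of Cd74 (0.0859 and 0.305) and Tnf (0.263 and 0.461) were lost. Lyz2 and Cd74 are also genes of macrophages: Cd74 measured 392 to 584 per 10000 in macrophage-like against 2.74 to 6.19 in microglia-like cells. The summed level of the 5 macrophage markers, Lyz2 among them, in microglia-like cells was 14.6 to 48.1 per 10000 in white and 12.2 to 14.7 in grey matter. Its part in these calls was not tested. None of the 3 regulators Tgfb1, Tgfb3 and Irf8 passed (smallest adjusted p = 0.727).

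With age, none of the 6 genes passed the test in microglia-like cells, although all 6 estimates were below 0. Over the whole slice edgeR called 1.1% of 362 genes, 4 in all, and none of the members. P2ry13 gave the clearest separation, with 86.5 and 88.9 per 10000 in the young and 65.8 and 70.0 in the aged slices. Its log2 change was -0.48 ± 0.18 (SE), 0.715 of the young level, at an unadjusted p = 0.0077 and an adjusted p = 0.190 by edgeR. For Tmem119 the change was -0.47 ± 0.18, for Siglech -0.50 ± 0.19, for Cx3cr1 -0.40 ± 0.17, for Csf1r -0.35 ± 0.17 and for P2ry12 -0.33 ± 0.17, with adjusted p from 0.190 to 0.305. Unadjusted, 5 of the 6 and 55 of the 362 genes were under 0.05. Without 1 slice the changes ran from -0.49 to -0.46 for P2ry13, but from -0.64 to -0.24 for Tmem119, -0.78 to -0.27 for Siglech, -0.55 to -0.19 for Cx3cr1, -0.54 to -0.18 for Csf1r and -0.46 to -0.19 for P2ry12. Siglech passed without Aged 2 (-0.78, adjusted p = 0.0393).

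The aged slices lay below both young slices for P2ry13, Tmem119, Cx3cr1 and Csf1r, as they did for 15.7% of the genes tested. For Csf1r the margin was 425 against 427 per 10000. For P2ry12 and Siglech the ages overlapped, since Aged 2 (532 and 59.2) lay above the lowest young slice (505 and 57.0). The 95% intervals ran from -0.83 to -0.13 for P2ry13 and from -0.67 to 0.02 for P2ry12.

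**Figure D4:**
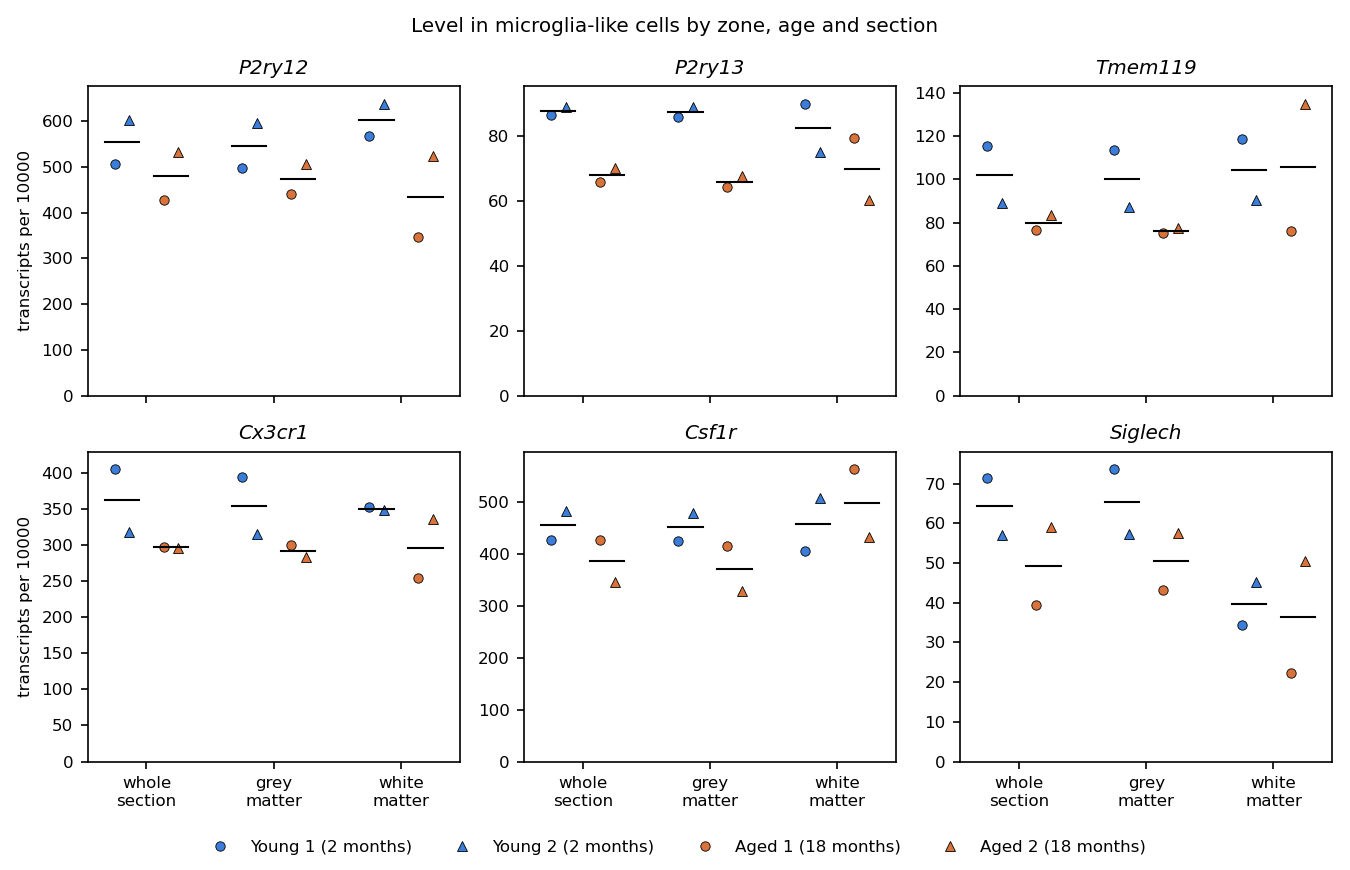
Level (transcripts per 10000) in microglia-like cells over the whole slice and in grey and white matter, 1 point per slice with a bar for the mean of 2 slices per age. Grey matter, which holds most of these cells, follows the whole slice, with P2ry13 at 87.4 in young and 65.9 in aged grey matter on average, while in white matter the ages overlap for P2ry13, Tmem119, Csf1r and Siglech.

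These lower estimates went together with other measures of the aged slices. Aged microglia-like cells held fewer transcripts of all genes (median 79 and 82 a cell, against 115 and 96), and a larger part of these came from the 7 neuron markers (330 and 367 per 10000, against 305 and 242) and the 7 astrocyte markers (145 and 106, against 82.0 and 97.7). The 7 microglia markers were also lower, at 1585 and 1426 against 1678 and 1607 per 10000. With mixed cells kept, the 6 changes shrank to between -0.22 and -0.09 on the log2 scale. Scaled to the microglia markers they lay between -0.24 and -0.07, while the median of all genes moved to 0.24. Scaled to cell volume they lay between -0.88 and -0.69, with the median of all genes at -0.40. The median volume of these cells was 398 µm³ in Aged 1, but 304 in Aged 2, 318 in Young 1 and 306 in Young 2. The part of depth and of foreign transcripts in the age estimates was not tested.

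Of the microglial identity list, whose genes had entered the clustering, 16 of 18 estimates were below 0 as well (median -0.34, against 0.00 over all genes). In this list 1 gene fell, where 1.1% of all genes tested passed in either direction. It was Trem2, itself a marker of the class, from 57.2 and 42.9 per 10000 to 28.4 and 31.3 (log2 -0.86 ± 0.19, adjusted p = 0.00504 by edgeR). That call was lost without Young 1 or Aged 1 (0.371 and 0.108), with the replicate block (0.162) or the crossed one (0.195), without TMM (0.147), scaled to cell volume (0.305) or to the microglia markers (0.133), and with mixed cells kept (0.240). None of the 26 activation genes tested passed, and 5 were under 0.05 unadjusted. None of the 3 regulators passed.

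In grey matter the picture was that of the whole slice. None of the 348 genes tested passed with edgeR (0% called, 53 under an unadjusted 0.05, and 4 called by DESeq2, no member among them). The members' log2 changes lay between -0.52 for P2ry13 and -0.32 for P2ry12, at adjusted p from 0.250 to 0.320, and without 1 slice between -0.70 (Tmem119) and -0.19 (Csf1r). The same 4 members had both aged slices below both young ones, as had 16.7% of the genes.

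In white matter the estimates spread around 0, and 0% of the 92 genes with enough counts passed (11 under an unadjusted 0.05, none by DESeq2 or limma). P2ry12 measured 567 and 638 per 10000 in the young and 346 and 523 in the aged slices (log2 -0.32, 95% interval -0.94 to 0.29). Csf1r measured 406 and 507 in the young and 562 and 432 in the aged (0.31, -0.43 to 1.05). Cx3cr1 measured 352 and 348 in the young and 254 and 337 in the aged (-0.09, -0.64 to 0.46). For Tmem119 the estimate was 0.14, for P2ry13 -0.05 and for Siglech -0.02, with an interval for Siglech from -1.03 to 0.99. Both aged slices lay below both young ones for P2ry12 and Cx3cr1, as for 27.2% of the genes tested, and the ages overlapped for the other 4 genes.

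Whether age acted differently in the 2 zones was tested directly, as the change in white minus that in grey matter. The zones follow the share of oligodendrocyte-like cells, which was higher in the aged slices, so the extent of each zone differed between the ages. The part of this in the zone values with age was not tested. Of 338 genes 1.48% passed, and none of the members (edgeR, adjusted p from 0.276 to 0.952, with 1 unadjusted p under 0.05). The nearest was Csf1r, at 0.49 ± 0.21 (adjusted p = 0.276). With clusters drawn at the finer resolution of 0.3 it passed (0.58, adjusted p = 0.0270). P2ry12 was the 1 member with an estimate below 0 (-0.22 ± 0.21). In the lists 1 gene passed: Ctsd, the lysosomal protease cathepsin D of the activation list, at 1.04 ± 0.21 (adjusted p = 0.000426), a call lost with limma (0.212) and without a filter on low counts (0.0522). The edgeR error, at 676 degrees of freedom, was pooled over all genes and does not measure the spread of Ctsd's own slices. Ctsd measured 350 and 415 per 10000 in white matter of the young and 745 and 556 in that of the aged slices, while in grey matter it measured 384 and 422 in the young and 355 and 345 in the aged.

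**Figure D5:**
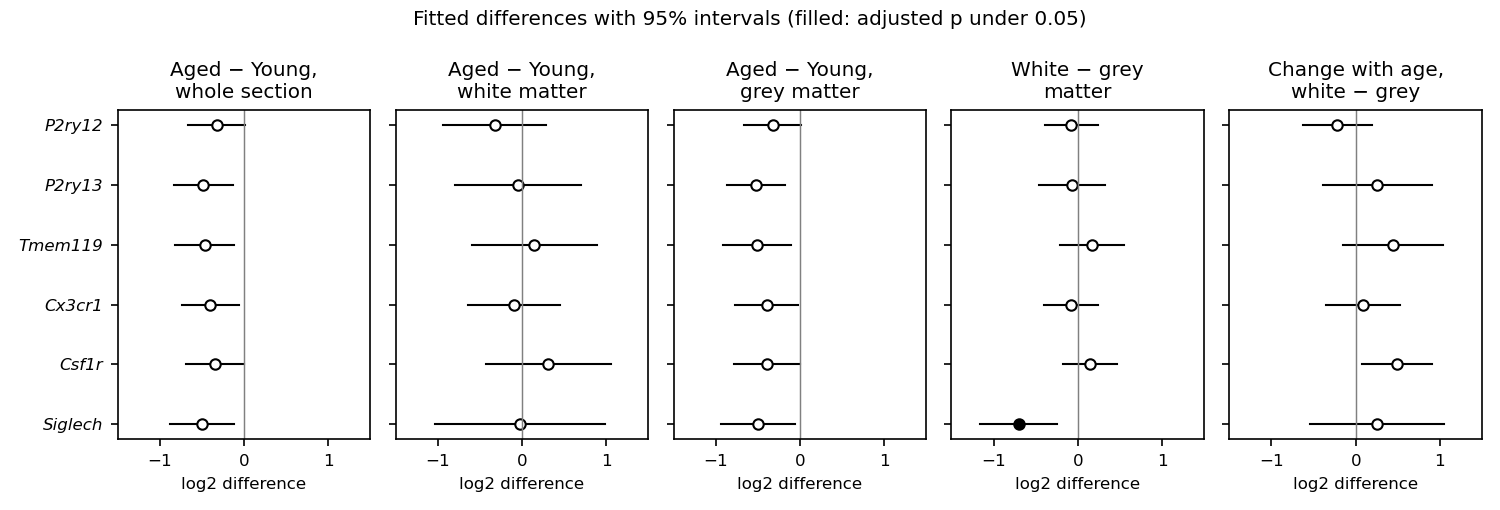
Fitted log2 differences of the 6 genes with 95% intervals in the 5 comparisons, filled where the adjusted p was under 0.05. Siglech between the zones is the 1 filled point, at -0.70, and all 6 points lie below 0 for age over the whole slice and in grey matter.

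Macrophage-like cells numbered 78 to 98 unmixed cells a slice, under the 100 required for a test, so their levels with age are given without one. Csf1r measured 91.6 and 141 per 10000 in the young and 108 and 110 in the aged slices. Cx3cr1 measured 21.9 and 20.6 in the young and 15.6 and 28.5 in the aged. For the other 4 genes the ages overlapped too.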

How the data were processed

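The 4 slices were imaged by MERFISH with a panel of 383 genes. The authors decoded the spots with MERLIN, segmented cells with Vizgen software and deposited, per cell, raw counts of each gene, cell volume as a signal in µm³ and the cell's position; they also deposited a table of mean transcripts per cell and slice, used only to check that each slice matched its label. No genome build applies to the counts, and the RefSeq sequences came from GRCm38.p6. The steps below were run on the deposited counts.

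Cells with under 10 genes or 50 µm³ were removed, as in the study's methods. Counts were scaled to 10000 per cell (division by volume, as in the methods, cancels here) and logged, and 377 genes without the 6 members were clustered (15 principal components, 20 neighbours, Louvain resolution 0.08, python-igraph 0.11.9). Clusters were named from marker lists where 3 or more markers were at least 1.5-fold raised. Macrophage-like cells came from sub-clusters (resolution 0.3) of the vascular cells, searched because sub-clusters of the microglia-like cells gave none, a choice made after seeing the data. Cells with 3 or more markers of their own and 3 or more of another class were left out as mixed; doublets were not treated otherwise.

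Counts were summed per slice, or slice and zone, and tested with edgeR 4.0.16 (TMM, filterByExpr, quasi-likelihood test, Benjamini-Hochberg over all genes tested, 0.05) on R 4.3.3. The edgeR test pools the spread between slices over genes, so its errors and intervals are not those of a gene's own slices alone. The degrees of freedom were 58.4 for age over the whole slice, 6.04 in white matter and 9.17 in grey matter. They were 25.5 between the zones and 676 for the interaction, where the spread was wholly that of all genes pooled. DESeq2 1.42.0, limma 3.58.1, other scalings, filters, zones, clusters and left-out slices were alternatives. The edgeR test was checked on simulated counts with the same dispersion for every gene. For age over the whole slice 86.7% of genes changed 2-fold were recovered (363 genes), and for white matter 61.5% (100 genes). Between the zones it was 59.5% (323 genes), with 4.46% of unchanged genes called, and for the interaction 12.5% (329 genes). For age over the whole slice 98 genes were changed 2-fold and 93 more by 2 on the log2 scale, far more than were called in the data. The shares recovered therefore need not hold for the data. Smaller changes, such as those estimated for the members, were not simulated. Depth was 18816375 to 36116711 transcripts a slice; levels rest on sums of counts.

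Named genes were the 6 members, the 5 panel genes closest to them in class profile (some are not reported here), and up to 4 called genes per list, direction and comparison. The members and lists were chosen with earlier results of these data known. Same-numbered slices were not paired by the labels, no cell identifier was shared between slices (0), and 0 columns of other series were present. Spreads and intervals cover these slices only.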

Additional observations from a re-analysis of the deposited data

Results flagged for a closer look

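One result stood out by the test of the difference between zones. Ctsd, the lysosomal protease cathepsin D, changed with age by 1.04 more on the log2 scale in white than in grey matter (SE 0.21, adjusted p = 0.000426 by edgeR, from 183 and 193 white matter transcripts in the young and 667 and 342 in the aged slices). The extent of the zones differed between the ages, and the part of this in the value was not tested. The edgeR error was pooled over all genes (676 degrees of freedom) and is not that of Ctsd's own slices. The call was lost with limma (adjusted p = 0.212) and without a filter on low counts (0.0522). With 2 slices per age no group was large enough for a check of single outlying slices.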

How the results depend on the processing

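Every one of the 6 members was highest in microglia-like cells in every slice under all alternatives (6 of 6 with mixed cells kept, at resolution 0.3, with macrophages by 3 markers and without each slice). For age over the whole slice and in grey matter all 6 estimates stayed below 0 under every alternative run, and no member passed, except Siglech without Aged 2 over the whole slice (0 to 1 members past the threshold over the left-out slices). With the replicate block 0 members passed over the whole slice, in white and in grey matter. The deviations of the slices numbered 1 correlated at -0.188 over 383 genes. With 2 slices per age the deviations within an age mirror each other, so this value cannot show whether slices were paired. The crossed pairing, tried after seeing the data, gave 0 members as well. In white matter 1 member, P2ry12, passed when scaled to cell volume (-1.0). Between the zones 0 members passed with DESeq2, with mixed cells kept and with 1 limit of 40%, 0 to 1 without 1 slice, and 3 when scaled to the microglia markers. In the interaction 1 passed when scaled to the microglia markers (P2ry12, -0.65) and 1 at resolution 0.3 (Csf1r, 0.58).

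Estimates near 0 changed sign. For age in white matter these were Tmem119 (-0.53 by volume, -0.17 by markers, -0.068 with 1 limit, -0.0049 without TMM), Csf1r (-0.46 by volume, -0.050 by markers), P2ry13 (0.061) and Cx3cr1 (0.043) at resolution 0.3. Between the zones these were, with mixed cells kept, P2ry12 (0.095), P2ry13 (0.15) and Cx3cr1 (0.21); with 1 limit 0.044, 0.10 and 0.053; by markers Tmem119 (-0.18) and Csf1r (-0.20); P2ry13 without TMM (0.0039); and Csf1r at resolution 0.3 (-0.010). In the interaction these were P2ry12 with 1 limit (0.073); by markers P2ry13 (-0.19), Tmem119 (-0.0052), Cx3cr1 (-0.35) and Siglech (-0.19); by volume Cx3cr1 (-0.047); and with mixed cells kept Cx3cr1 (-0.068) and Siglech (-0.093). Without 1 slice the white matter changes ran from -0.40 to 0.25 (P2ry13), -0.15 to 0.42 (Tmem119), -0.15 to 0.0023 (Cx3cr1), -0.017 to 0.61 (Csf1r) and -0.52 to 0.40 (Siglech), the zone differences from -0.16 to 0.065 (P2ry12), -0.16 to 0.11 (P2ry13), -0.029 to 0.33 (Tmem119) and -0.16 to 0.028 (Cx3cr1), and the interaction from -0.31 to 0.18 (P2ry12), -0.077 to 0.54 (Cx3cr1) and -0.13 to 0.80 (Siglech). The share of microglia-like cells, aged minus young, was -0.20 percentage points with mixed cells kept and -0.24 at resolution 0.3 (exact permutation p = 0.333 for each, the smallest possible). It was -0.046 to 0.11 without 1 slice. The cause was not tested.

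Over all genes the whole-slice count of 4 became 0 by volume, 13 by markers, 11 in the striatum, 2 with the replicate block, 0 crossed and 1 to 12 without 1 slice. The grey matter count of 0 became 15 by markers, 16 crossed, 2 by volume, 3 at resolution 0.3, 4 with DESeq2 or 1 limit and 0 to 9 without 1 slice. The white matter count of 0 became 5 with 1 limit, 3 with mixed cells kept, 2 by volume, 1 without a filter, 1 with the replicate block and 0 to 4 without 1 slice. The zone count of 103 became 163 with mixed cells kept. The interaction count of 5 became 33 with mixed cells kept, 18 by markers, 0 with limma or no filter, 1 with DESeq2 or without TMM, 3 with 1 limit and 1 to 3 without 1 slice. White matter rests on 32 to 92 cells a slice, and a member's counts there, as few as 18, limit its precision.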
